A study of Mus musculus with 9 samples.

Results

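The genes described here are the solute carriers, the membrane transporters whose mouse symbols begin with Slc followed by a family number, a letter a and a member number, together with the Slco organic anion transporters. They were chosen by symbol alone, 1 gene was left out, and for each gene the brightest of its probe sets on average was used. The array held 255 of them among 12393 genes with a probe set of their own. Of these 255, 164 (64.3%) reached the minimum mean signal and could be tested, against 8675 (70%) of all genes. The 255 genes were sorted by substrate into 5 groups: 41 amino acid transporters, 21 glucose and other sugar transporters, 60 ion transporters, 33 mitochondrial carriers of the Slc25 family, and 100 others that carry lipids, vitamins, nucleosides, drugs and the like.

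RNA came from wild-type mouse mid-foregut, the piece of gut tube between the pharyngeal arches and the liver in which the lung and trachea are specified. The stages were 16-20 somites (embryonic day 8.5), 21-25 somites (embryonic day 9.0) and 26-30 somites (embryonic day 9.5), with 3 biological replicates each. From 5 to 10 foreguts were pooled for a replicate, which went onto 1 Affymetrix array after 2 rounds of RNA amplification. All errors thus rest on the spread between pools. An SD is that of the 3 pools of a stage. The SE of a log2 difference comes from the spread within stages over all 9 arrays, moderated by limma across genes. Values are MAS5 signals, a linear measure of probe brightness that cannot be compared between probe sets, and differences are on the log2 scale after adding 26.1 to each signal, which understates the change of dim genes.

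Solute carriers move nutrients, ions and metabolites across membranes, each family using a different driving force such as a sodium, proton or concentration gradient. Early embryonic tissues take up glucose largely through facilitative transporters of the Slc2 family and neutral amino acids through sodium-coupled carriers of the Slc1 and Slc38 families. Slc25 carriers sit in mitochondria, nearly all in the inner membrane, and exchange nucleotides, phosphate, acylcarnitines and other metabolites with the cytosol.

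Some arrays stood apart. The highest signal on 3 arrays (21-25 somites replicate 1, and 26-30 somites replicates 1 and 2) lay between 27480 and 32584, against 43792 to 61749 on the other 6; the 3 are here called narrow-range arrays. On 16-20 somites replicate 2 the summed signal of 10 hepatic marker genes was 42073, against 1852 to 9812 on the others, and that of 14 cardiac marker genes was 19543, against 2584 to 7810. The ratio of 3′ to 5′ actin probe sets, a sign of RNA length, ran from 20.9 to 45.3 and was highest on 21-25 somites replicate 2. The same ratio for Gapdh ran from 16.0 to 40.9 and was highest on 26-30 somites replicate 3, with 36.4 on 21-25 somites replicate 2. Of the markers of foregut endoderm, Foxa1 (1383 to 3123), Foxa2, Sox2, Sox17, Epcam and Cdh1 had probe sets above the filter. Those of Shh (0.7 to 38.3) and Nkx2-1 (7.2 to 98.6) were below it. Of 9 mesenchyme markers measured, 7 were above the filter: Pdgfra (1045 to 3293), Prrx1, Wnt2, Barx1, Twist1, Tbx5 and Osr1. Foxf1 and Tbx4 were below it. Slc2a3, Slc2a10, Slc25a4, Slc25a5, Slc25a47 and Slc44a2 were among those read by probe sets of the kind that may also bind related transcripts, so their values are uncertain in that respect.

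From 16-20 to 26-30 somites none of the 164 tested solute carriers differed at an adjusted p under 0.05 in limma, nor did any of the 8675 genes (0 of 8675, 0%). At an unadjusted p under 0.05 there were 13 solute carriers (7.93%), 9 with a higher and 4 with a lower signal at the later stage, against 965 of all genes tested (11.1%; 6.33% higher and 4.8% lower). Array signals of the stages did not overlap for 27 solute carriers (16.5%), 19 higher and 8 lower, against 1855 of all genes (21.4%; 11.2% higher and 10.2% lower). Both shares were below the background of all genes. Differences were above 0 in 82 solute carriers and below 0 in 82, against 51% above 0 among all genes, and their median was 0.00, against 0.01. In an alternative, limma gave each array a weight by its fit. In order of replicate the weights were 0.67, 0.76 and 1.68 at 16-20 somites, 0.40, 0.33 and 2.89 at 21-25 somites and 3.37, 1.35 and 0.67 at 26-30 somites. At 26-30 somites the larger weights thus fell on replicates 1 and 2, both narrow-range arrays. With these weights 7 solute carriers (4.27%) passed over the whole interval, against 704 genes (8.12%). They were Slc38a5, Slc25a46, Slc25a20, Slc44a2, Slc25a36 and Slc41a3 with a higher signal, and Slc2a3 with a lower one. In bulk tissue, fewer cells of a type and less RNA per cell cannot be told apart in these or any of the following values.

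**Figure D1:**
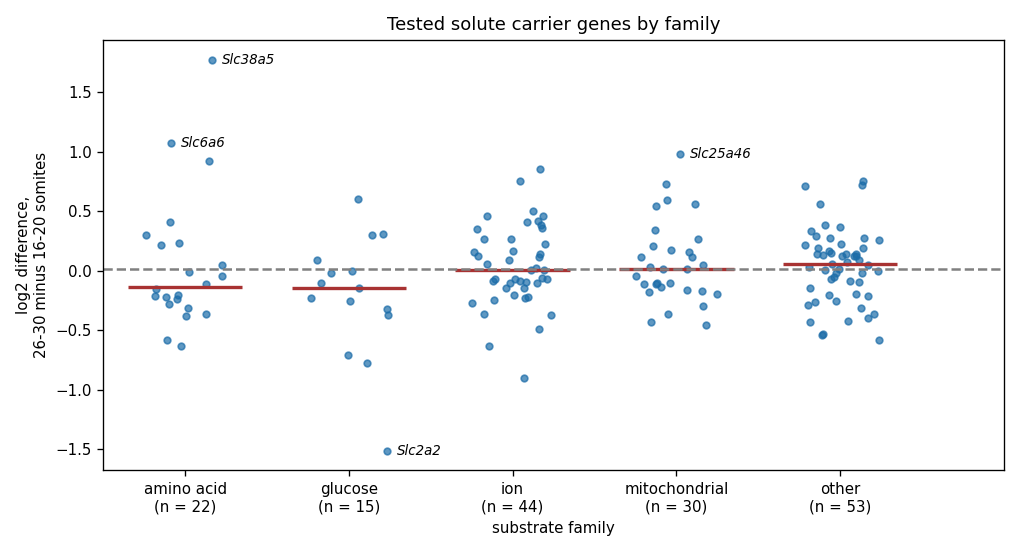
Log2 difference between 26-30 and 16-20 somites for each tested solute carrier (points, spread sideways for visibility), by substrate family; the red line is the family's median and the dashed line the median of all genes tested. The medians of the amino acid (-0.13) and glucose (-0.15) families lay below 0, and those of the other families between 0.01 and 0.05.

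Promoter sequence is shown for 4 carriers picked after their values were seen: the amino acid carrier Slc38a5 and the mitochondrial carriers Slc25a36 and Slc25a20, with higher signals at 26-30 somites, and the glucose transporter Slc2a1, with a lower mean there. None is printed for Slc2a3 or Slc25a46. Each is the stretch of 250 bases before the gene's start from RefSeq (GRCm38.p6), printed 5′ to 3′ on the gene's strand, with matches to 3 motifs in capitals. The motifs, searched on both strands, were ACGTG (reverse CACGT), the core bound by hypoxia-inducible and related factors; TGACGTCA, the cyclic AMP response element; and GGGCGG (reverse CCGCCC), the GC box. A palindromic CACGTG holds the first motif on both strands. The windows are chrX:8271131-8271380 (plus strand) for Slc38a5, chr9:97111042-97111291 (minus strand) for Slc25a36, chr9:108661886-108662135 (plus strand) for Slc25a20 and chr4:119108495-119108744 (plus strand) for Slc2a1, with 55.2%, 64.4%, 56.8% and 66.4% G and C.
Slc38a5: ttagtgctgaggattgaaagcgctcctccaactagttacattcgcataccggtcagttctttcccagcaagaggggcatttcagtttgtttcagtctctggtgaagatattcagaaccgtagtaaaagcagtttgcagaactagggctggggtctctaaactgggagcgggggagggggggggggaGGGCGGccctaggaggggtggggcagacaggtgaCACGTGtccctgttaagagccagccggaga
Slc25a36: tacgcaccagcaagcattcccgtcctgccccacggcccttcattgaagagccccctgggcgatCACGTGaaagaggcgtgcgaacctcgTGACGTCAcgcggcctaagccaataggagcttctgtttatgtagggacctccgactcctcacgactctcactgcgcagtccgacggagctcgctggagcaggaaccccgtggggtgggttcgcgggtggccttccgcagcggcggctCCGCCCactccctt
Slc25a20: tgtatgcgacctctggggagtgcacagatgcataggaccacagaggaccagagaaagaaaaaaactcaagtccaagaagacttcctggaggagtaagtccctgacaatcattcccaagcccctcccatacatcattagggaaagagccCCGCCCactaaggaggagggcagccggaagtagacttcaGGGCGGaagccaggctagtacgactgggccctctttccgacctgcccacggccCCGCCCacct
Slc2a1: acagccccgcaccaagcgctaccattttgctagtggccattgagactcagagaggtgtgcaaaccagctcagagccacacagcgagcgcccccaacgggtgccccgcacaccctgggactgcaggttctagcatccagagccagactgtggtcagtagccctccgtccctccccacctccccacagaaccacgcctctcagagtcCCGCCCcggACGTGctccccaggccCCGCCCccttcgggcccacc
The windows of Slc38a5 and Slc25a36 each held a CACGTG, that of Slc25a36 also 1 TGACGTCA, and that of Slc2a1 1 ACGTG. GC boxes numbered 1, 1, 3 and 2 in the order printed. ACGTG was present in 16.6% of all 32851 windows of this length and in 22% of 173 windows of 122 tested solute carriers. TGACGTCA was in 1.55% and 1.16%, and GGGCGG in 32.7% and 60.1%. The tested solute carriers passed a filter on signal that all windows did not, and these matches describe letters only.

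The amino acid transporters held the gene with the smallest p of the set, Slc38a5, whose signal was higher at both later stages. Of the 22 tested members of 41, 8 had differences above 0 and 14 below 0 over the whole interval, with a median of -0.13 against 0.01 for all genes; 0 passed in limma and 3 (13.6%) had an unadjusted p under 0.05, against 11.1% of all genes. Slc38a5 (SNAT5) carries glutamine, asparagine, histidine and glycine together with sodium in exchange for protons. Its signals were 224, 98.6 and 145 at 16-20 somites, 302, 455 and 411 at 21-25 somites and 474, 895 and 436 at 26-30 somites. No array of the earliest stage reached the lowest of the later ones, and the stages from 21-25 somites on overlapped. The difference was 1.77 ± 0.32 (SE) over the whole interval (adjusted p = 0.265) and 1.23 ± 0.32 over the first step (adjusted p = 0.314). It was 1.40 without the narrow-range arrays, and its adjusted p ran from 0.0117 with array weights to 0.999 over the alternatives.

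Glycine transporter 1, Slc6a9, which takes up glycine with sodium and chloride, gave 71.8, 205 and 179 at 16-20 somites, 279, 295 and 336 at 21-25 somites and 266, 279 and 326 at 26-30 somites. The earliest stage lay below both later ones on every array, with 16-20 somites replicate 1 lowest by far. Its difference was 0.92 ± 0.30 (adjusted p = 0.353), 0.53 without that array, and a second probe set of the gene gave 0.12. The taurine transporter Slc6a6, named after its values were seen, was also higher on every array at 26-30 somites (152, 203 and 129.6) than at 16-20 somites (20.2, 96.5 and 94.8). Its difference of 1.07 ± 0.64 carried a wide error (adjusted p = 0.53), and at 21-25 somites its signals ran from 11 to 302. With the mean of all its probe sets the difference was 0.31.

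Within the sodium-coupled Slc38 family, 5 of 6 members were tested. Slc38a2 (SNAT2), a carrier of small neutral amino acids whose transcription is known to respond to amino acid shortage, gave 6361, 4871 and 5372 at 16-20 somites, 7336, 3586 and 8618 at 21-25 somites and 7949.5, 6996 and 7006 at 26-30 somites. All 3 arrays at 26-30 somites lay above all at 16-20 somites, by 0.41 ± 0.29 (adjusted p = 0.601), while 21-25 somites replicate 2 was the lowest of the 9. Slc38a4, an imprinted gene active in placenta and liver, had a difference of 0.23 ± 0.35 with overlapping arrays, and another probe set gave -0.64. Slc38a10 had -0.04 ± 0.22 over the whole interval, and all arrays at 26-30 somites lay below those at 21-25 somites, by -0.35 ± 0.22. Its other probe sets did not share this second step: those above the filter gave 0.81, 0.38, 0.03, 0.04 and -0.05, and one below it 0.22.

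The Slc7 family of cationic amino acid carriers and light chains had 8 tested members of 13, of which 7 had differences below 0, with a median of -0.26, against 51% above 0 among all genes. One of the 7, Slc7a9, was at -0.58 ± 0.48 and at 0.01 without 16-20 somites replicate 2. Slc7a9 passed the filter only through that array and Slc7a2 only through the earliest stage, so the filter bore on the count of 7. Slc7a2, a carrier of arginine and lysine, was the one with an unadjusted p under 0.05. Its signals were 127, 84.2 and 133 at 16-20 somites, 59.1, 87.4 and 83.7 at 21-25 somites and 56.5, 49.8 and 87.7 at 26-30 somites. The first and last stage overlapped by 1 array on each side, and the difference was -0.64 ± 0.28 (adjusted p = 0.437), or -0.29 without the narrow-range arrays. The member above 0 was Slc7a5 (LAT1), the light chain that exchanges large neutral amino acids, at 0.22 ± 0.28. Its arrays at 21-25 somites (249, 194 and 234) all lay above those at 16-20 somites (184, 134 and 112), and those at 26-30 somites (104, 202 and 220) overlapped both. The difference ran from 0.04 without 26-30 somites replicate 3 to 0.51 without replicate 1 of that stage. The heavy chain partner of Slc7a5, Slc3a2 (4F2hc) had a difference of -0.01 ± 0.21, with all 9 arrays between 609 and 982. The neutral amino acid exchangers Slc1a4 (ASCT1), at -0.38 ± 0.23, and Slc1a5 (ASCT2), at 0.05 ± 0.41, overlapped between stages. Slc1a5 was at 31.2 on 16-20 somites replicate 2 and between 57.6 and 146 on the other arrays, and its difference was -0.43 without that array.

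**Figure D2:**
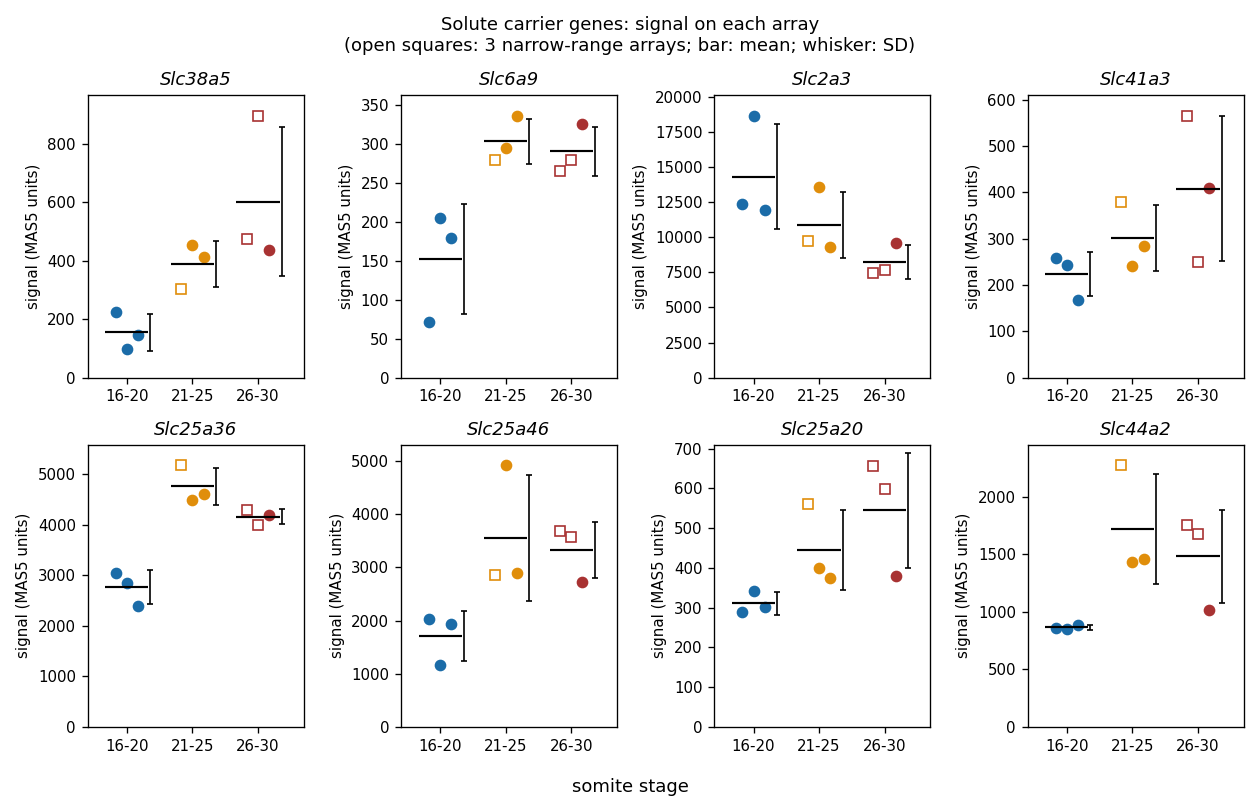
MAS5 signal on each array (linear axis from 0) against somite stage for Slc38a5, Slc6a9, Slc2a3, Slc41a3, Slc25a36, Slc25a46, Slc25a20 and Slc44a2; bars are stage means, whiskers the SD of 3 arrays, and open squares the narrow-range arrays. All of these but Slc41a3 had no overlap between arrays of the first and the last stage, and Slc2a3 was the one with lower signals at the end.

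In the glucose and sugar group more genes had lower than higher signals at the last stage, which rested in part on single arrays. Of 21 members 15 were tested, 4 with differences above 0 and 11 below 0, median -0.15; none passed in limma and 1 (6.67%), Slc2a3, had an unadjusted p under 0.05, against 11.1% of all genes. The group median was -0.02 without 16-20 somites replicate 2 and, separately, without replicate 3 of that stage. Of the 8 genes of the Slc2 family of facilitative hexose transporters on the array, 7 were tested, with differences from -1.51 to -0.01 and a median of -0.37. The filter bore on this count: Slc2a2 passed it only through 16-20 somites replicate 2, and Slc2a9, which did not pass, had the opposite order, with stage means of 35.7 ± 26.2 (SD, n = 3), 69.6 ± 9.15 and 70.0 ± 9.10. Of the 7 tested Slc2 genes 5 were below 0 without 16-20 somites replicate 2, with a median of -0.16, and 5 of 7 without 26-30 somites replicate 3. Slc2a4, Slc2a5, Slc2a8 and Slc2a10 had overlapping arrays at the first and last stage.

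Slc2a3 (GLUT3), a glucose transporter of high affinity known from neurons and early embryos, gave 12372, 18638 and 11929.6 at 16-20 somites, 9754, 13552 and 9319 at 21-25 somites and 7441, 7663 and 9628 at 26-30 somites. Every array at 26-30 somites was below every array at 16-20 somites, while 21-25 somites overlapped both. Stage means were 14313 ± 3752 (SD, n = 3), 10875 ± 2329 and 8244 ± 1204. The difference was -0.77 ± 0.24 (adjusted p = 0.351, from 0.0262 with array weights to 0.999 over the alternatives), and -0.57 without 16-20 somites replicate 2. Its other probe sets gave -0.69, -0.30 and, for one below the filter, 0.07, and the mean of all of them gave -0.43.

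Slc2a1 (GLUT1), the widely used basal glucose transporter, gave 2589, 8059 and 3170.1 at 16-20 somites, 4365, 1513 and 2655 at 21-25 somites and 3254, 2247 and 2051 at 26-30 somites. Its highest value was on 16-20 somites replicate 2, and the stages overlapped. The difference was -0.71 ± 0.44 (adjusted p = 0.545), -0.21 without that array, and other probe sets gave -1.10 and -0.29. Slc2a2 (GLUT2), the transporter of liver, pancreas and gut, stood at 804 on 16-20 somites replicate 2 and between 17.4 and 77.6 on the other 8 arrays. Its difference of -1.51 ± 0.70 (adjusted p = 0.45) was -0.42 without that array. The hepatic marker sum was also highest on that array, and its part in these values was not tested.

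**Figure D3:**
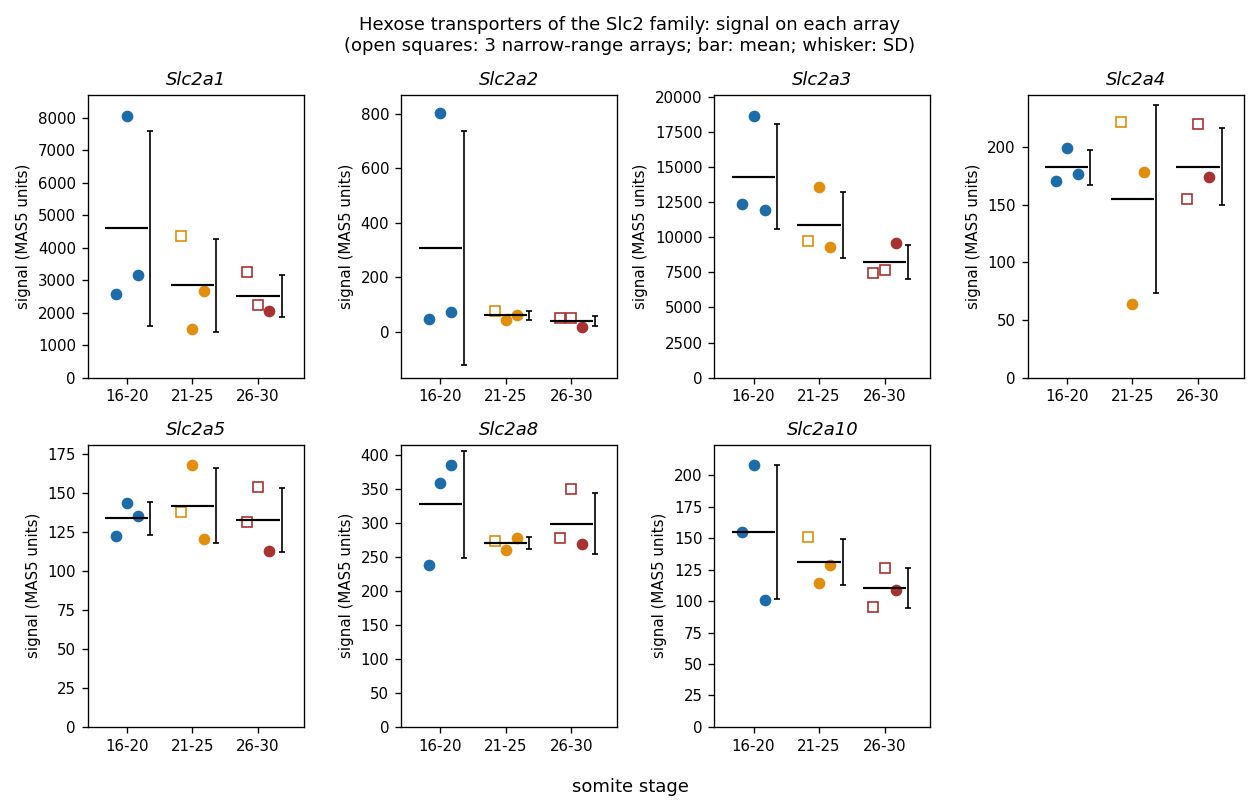
MAS5 signal on each array (linear axis) against somite stage for the 7 tested Slc2 hexose transporters; bars are stage means, whiskers the SD of 3 arrays, and open squares the narrow-range arrays. Slc2a3 had no overlap between the first and the last stage, whereas the high means of Slc2a1 and Slc2a2 at 16-20 somites came with a single high array at 8059 and 804.

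In the rest of the sugar group, Slc45a3, a proton-coupled sugar carrier, had the smallest p above 0, at 0.60 ± 0.31 (adjusted p = 0.473). Its signals of 110.3, 94.3 and 49.8 at 16-20 somites, 149.7, 117 and 78.0 at 21-25 somites and 102, 149.6 and 169 at 26-30 somites overlapped between stages, another probe set gave -0.67, and the mean of both gave -0.03. Slc50a1, a sugar carrier of the SWEET family, had 0.31 ± 0.22, also with overlap. The 4 Slc37 sugar-phosphate exchangers of the endoplasmic reticulum had a median of -0.20, with 1 above 0.

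Among ion transporters 44 of 60 were tested and split almost evenly, 23 above and 21 below 0, with a median of 0.01. None passed in limma, and 3 (6.82%, against 11.1% of all genes) had an unadjusted p under 0.05: Slc41a3, Slc39a4 and Slc39a3. Slc41a3, a magnesium transporter of mitochondria, gave 257, 244 and 169 at 16-20 somites, 380.1, 241 and 283 at 21-25 somites and 565, 250.1 and 409 at 26-30 somites. One array at 26-30 somites lay within the range of the earliest stage. The difference was 0.75 ± 0.30 (adjusted p = 0.39, 0.0398 with array weights and up to 0.999 over the alternatives), a second probe set gave 0.24, and the mean of all its probe sets gave 0.41. Slc26a2, the sulfate carrier that supplies cartilage and other matrix, did not overlap between the first and last stage. It stood at 409.5, 297 and 332 at 16-20 somites and 496, 517 and 483 at 26-30 somites, a difference of 0.50 ± 0.23 (adjusted p = 0.45), or 0.23 with the mean of its probe sets.

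Zinc is handled by importers of the Slc39 (ZIP) family and exporters of the Slc30 (ZnT) family. All 10 Slc39 genes were tested, 5 above and 5 below 0, and 7 of 8 Slc30 genes, 5 above and 2 below. Slc39a4 (ZIP4), the importer of intestine and visceral yolk sac, gave 150.0, 590.1 and 217 at 16-20 somites, 147, 163 and 146 at 21-25 somites and 97.9, 158 and 151 at 26-30 somites. Its highest array was 16-20 somites replicate 2, and without it the difference of -0.90 ± 0.38 (adjusted p = 0.422) was -0.38. Slc39a3 (ZIP3), at 214, 381 and 318 at 16-20 somites, 146, 188 and 272 at 21-25 somites and 139.8, 232 and 185 at 26-30 somites, had -0.63 ± 0.29 (adjusted p = 0.443) with 1 array of overlap, and -0.24 with the mean of its probe sets. Slc39a6 (ZIP6) had 0.42 ± 0.29 and stood at 8095 on 21-25 somites replicate 2, against 2566 to 5211 elsewhere; the difference was 0.20 without 16-20 somites replicate 2. Slc39a8 (ZIP8), a zinc and manganese importer, varied within stages from 531 to 1273, 752 to 1613 and 747 to 1906, with a difference of 0.27 ± 0.42. Slc30a1 (ZnT1), the exporter of the plasma membrane, had 0.02 ± 0.30.

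For iron, Slc40a1 (ferroportin), the cellular iron exporter, had a difference of 0.23 ± 0.25 with overlapping arrays between 267 and 476. A second probe set gave -0.11, and the mean of both gave 0.06. The phosphate carrier Slc20a1 lay at 2335, 1859 and 2552 at 16-20 somites and at 3409, 2603 and 2933 at 21-25 somites, with no overlap in the first step, and had 0.14 ± 0.21 over the whole interval. Slc12a2 (NKCC1), the sodium, potassium and chloride cotransporter, had 0.35 ± 0.23. The copper transporter Slc31a2 was lower on every array at 26-30 somites (127, 104 and 106) than at 21-25 somites (168, 129 and 216), with a difference of -0.49 ± 0.27 (adjusted p = 0.998), and had -0.10 ± 0.27 over the whole interval.

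Mitochondrial carriers were the family with the largest share above the filter, 30 of 33 (90.9%). Their differences split 16 above and 14 below 0, with a median of 0.02; none passed in limma. An unadjusted p under 0.05 was found for 4, all with higher signals at 26-30 somites (Slc25a46, Slc25a36, Slc25a20 and Slc25a53), and arrays did not overlap for 9, 6 higher and 3 lower. These were 13.3% and 30% of the tested carriers, against 11.1% and 21.4% of all genes.

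Slc25a36, which carries pyrimidine nucleotides into mitochondria and whose printed promoter window held a CACGTG and a TGACGTCA, gave 3044, 2849.9 and 2396 at 16-20 somites, 5173, 4497 and 4608 at 21-25 somites and 4287, 3999 and 4183 at 26-30 somites. The earliest stage lay below both later ones, and the last stage lay below the middle one on every array. The difference was 0.78 ± 0.19 over the first step (adjusted p = 0.314), -0.19 ± 0.19 over the second (adjusted p = 0.998) and 0.59 ± 0.19 over the whole interval (adjusted p = 0.353, 0.0264 with array weights and up to 0.999 over the alternatives). A second probe set gave 0.22.

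Slc25a46, an outer membrane member of the family involved in mitochondrial fission and lipid exchange, gave 2026, 1173 and 1929 at 16-20 somites, 2855, 4916 and 2893 at 21-25 somites and 3688, 3573 and 2730.2 at 26-30 somites. All 6 later arrays lay above the 3 earliest, with the highest on 21-25 somites replicate 2 and the lowest on 16-20 somites replicate 2. The difference was 0.98 ± 0.29 (adjusted p = 0.344, 0.0181 with array weights and up to 0.999 over the alternatives), and a second probe set gave 0.40. Slc25a20, the carnitine-acylcarnitine carrier that brings fatty acids in for oxidation, gave 288, 343 and 303 at 16-20 somites, 559.6, 400.3 and 375 at 21-25 somites and 655, 598 and 380.3 at 26-30 somites. It did not overlap between the earliest stage and either later one, the 3 highest of its arrays were the narrow-range ones, and its difference of 0.73 ± 0.25 (adjusted p = 0.364, 0.0231 with array weights and up to 0.999 over the alternatives) was 0.27 without them. A second probe set gave 1.51. Slc25a53, a little-studied member, stood at 259, 299 and 268 at 16-20 somites and 385, 446 and 409 at 26-30 somites, a difference of 0.54 ± 0.20. Slc25a20 and Slc25a53 were named after their values were seen.

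Slc25a37 (mitoferrin 1), the iron importer of erythroid mitochondria, was at 384, 317 and 301 at 16-20 somites and at 447, 572 and 493 at 26-30 somites, with no overlap and a difference of 0.56 ± 0.31 (adjusted p = 0.497). Summed erythroid marker signals ran from 36912 to 40679 at the first stage and from 20985 to 58024 at the last, and their part in this difference was not tested. The adenine nucleotide exchangers and the phosphate carrier feed ATP synthesis. Slc25a4 (ANT1) was lower on every array at 26-30 somites (10476, 8143 and 11657) than at 16-20 somites (13011, 13609 and 14398), with a difference of -0.45 ± 0.21 (adjusted p = 0.455) that was -0.23 without the narrow-range arrays; its other probe sets gave -0.51, -0.16 and 0.14. Slc25a5 (ANT2) had -0.19 ± 0.24 and the phosphate carrier Slc25a3 -0.11 ± 0.24, both with overlapping arrays. The other probe sets of Slc25a5 gave -0.57, -0.47, -0.38, -0.23, -0.20, 0.19 and 0.35. Slc25a47, a carrier known from liver, was lower on all 3 last arrays (142, 209 and 168) than on the earliest (217, 282 and 224), with a difference of -0.43 ± 0.23 (adjusted p = 0.487).

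Among the 100 other members 53 were tested, 31 above and 22 below 0, with a median of 0.05. None passed in limma; 2 (3.77%, against 11.1% of all genes), Slc44a2 and Slc10a3, had an unadjusted p under 0.05. Slc44a2, a choline transporter-like protein, gave 857, 849 and 887 at 16-20 somites, 2271, 1428 and 1454 at 21-25 somites and 1749.8, 1676 and 1019 at 26-30 somites. The 3 earliest arrays lay close together and below all later ones. The 3 highest arrays were the narrow-range ones. Its difference of 0.72 ± 0.26 (adjusted p = 0.376, 0.0254 with array weights and up to 0.999 over the alternatives) was 0.23 without them, and its other probe sets, both below the filter, gave 1.12 and 0.07. Slc10a3, a relative of the bile acid carriers, gave 249.8, 192 and 175 at 16-20 somites, 245, 286 and 222 at 21-25 somites and 297, 322 and 319 at 26-30 somites. The last stage lay above both earlier ones on every array, by 0.56 ± 0.21 over the whole interval (adjusted p = 0.38).

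The members named for the smallest p on the lower side were Slc5a6 and Slc23a1. Slc5a6, which takes up biotin, pantothenate and lipoate, was at 113, 101 and 158 at 16-20 somites and 63.4, 89.0 and 78.8 at 26-30 somites, with no overlap and a difference of -0.53 ± 0.29 (adjusted p = 0.498). Slc23a1, a sodium-coupled ascorbate carrier, had -0.58 ± 0.27 (adjusted p = 0.45) with 1 array of overlap, or -0.22 with the mean of its probe sets. The lactate and pyruvate carrier Slc16a1 (MCT1) varied within stages from 350.2 to 940.3, 236 to 607 and 351 to 895, with a difference of 0.12 ± 0.44, or -0.64 without the narrow-range arrays. Slc16a3 (MCT4) was below the filter, with signals from 12.5 to 116. Slc35a1, which brings CMP-sialic acid into the Golgi, had 0.02 ± 0.21. Slc9a3r1, a scaffold for transporters that the symbol rule takes in although it transports nothing, stood at 4179 on 16-20 somites replicate 2 and between 976 and 2929 elsewhere, with a difference of 0.19 ± 0.42.

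**Figure D4:**
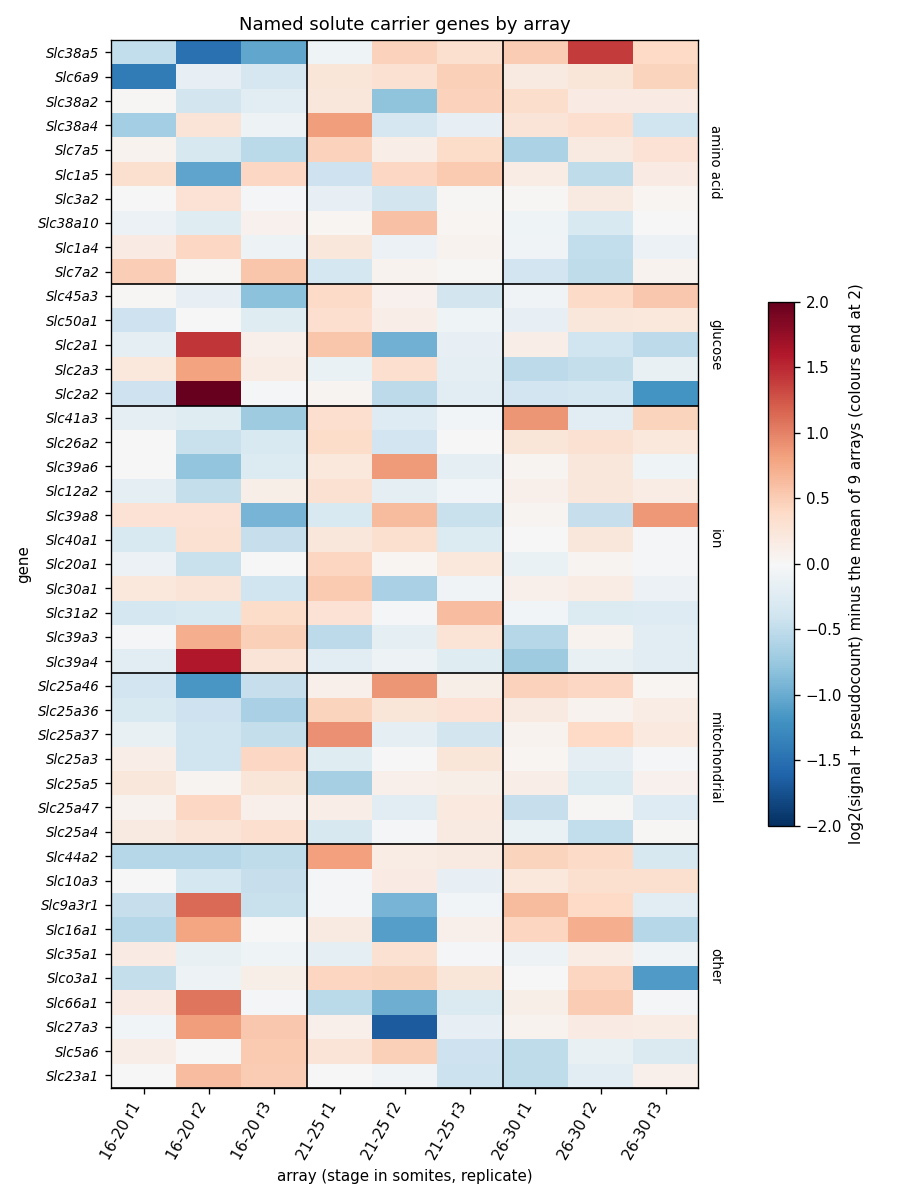
Log2 signal of each named, tested solute carrier on each array, as the difference from its mean over 9 arrays (red higher, blue lower; scale bar in log2 units); columns are arrays in order of stage and replicate (r), rows are genes grouped by substrate family. Slc38a5, Slc25a46 and Slc25a36 are blue on the 3 earliest arrays, and Slc2a1, Slc2a2 and Slc39a4 reach their highest values on 16-20 somites replicate 2.

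The comparison of 21-25 with 16-20 somites asks what differs around the time the lung is specified. None of the 164 solute carriers passed in limma (0% of 8675 genes did), 11 had an unadjusted p under 0.05 (6.71%, against 11% of all genes), and arrays did not overlap for 16 (9.76%, against 14.3%). By direction, 9 of the 11 were higher and 2 lower (5.75% and 5.26% of all genes), and 12 of the 16 were higher and 4 lower (6.97% and 7.32%). Differences were above 0 in 82 of the 164, against 50.3% of all genes. The smallest p values on the higher side were those of Slc25a36 and Slc38a5 described above. On the lower side they were those of Slc66a1 and Slc27a3. Slc66a1, which exports lysine and arginine from lysosomes and was sorted here with the others, gave 194, 387 and 166 at 16-20 somites, 109, 74.1 and 134 at 21-25 somites and 186, 253 and 166 at 26-30 somites. Its 3 arrays at 21-25 somites lay below all of the other 6. The difference was -1.003 ± 0.32 over the first step (adjusted p = 0.345) and 0.79 ± 0.32 over the second (adjusted p = 0.998), and the test of the difference between both steps gave an adjusted p of 0.762. Slc27a3, an acyl-CoA synthetase of the fatty acid transport family, had -1.02 ± 0.40 (adjusted p = 0.404) with signals of 176, 349.6 and 279 at 16-20 somites, 199, 39.8 and 162 at 21-25 somites and 194, 208 and 207 at 26-30 somites. Its lowest value was on 21-25 somites replicate 2, where the actin 3′ to 5′ ratio was highest, and the difference was -0.47 without it; the part of RNA length was not tested.

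From 21-25 to 26-30 somites none of the 164 passed in limma (0% of all genes did), and 1 solute carrier, Slc66a1, had an unadjusted p under 0.05 (0.61%, against 3.98% of all genes); it was higher (2.03% of all genes were, and 1.95% lower). Arrays did not overlap for 7 (4.27%, against 9.31%), 3 higher and 4 lower (4.48% and 4.83% of all genes), and differences were above 0 in 75 of 164, against 50.9%. Besides Slc31a2, the lower side was led by Slco3a1, an organic anion and prostaglandin carrier. It gave 159.5, 215 and 254 at 16-20 somites, 322, 326 and 279 at 21-25 somites and 234, 321 and 90.8 at 26-30 somites, a difference of -0.61 ± 0.35 (adjusted p = 0.998). Its lowest array was 26-30 somites replicate 3, where the Gapdh 3′ to 5′ ratio was highest, and without that array the difference was -0.15. The part of RNA length was not tested. Any difference among the 3 stages, by limma's F test, was found for none of the 164 (0% of all genes); 10 had an unadjusted p under 0.05 (6.1%, against 9.68%), and 5 passed with array weights (3.82% of all genes). With array weights 0 solute carriers passed in the first step (0% of all genes) and 0 in the second (0.277%).

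Some members were high on a single array. On 16-20 somites replicate 2, 4 of the 164 tested solute carriers had at least 2 times the signal of every other array, as did 56 of all 8675 genes tested. The 4 were Slc2a2 at 804, Slc39a4 at 590.1, the renal and intestinal cystine carrier Slc7a9 at 300.0 and the iodide carrier Slc5a5 at 208. On the other 8 arrays Slc7a9 lay between 35.5 and 99.6 and Slc5a5 between 31.4 and 99.8. These 4 were picked after their values were seen, and Slc2a2, Slc7a9 and Slc5a5 passed the filter only through that array, since their means over the other 8 were 52.6, 70.5 and 72.5. On the same array Ttr stood at 21559, Afp at 7950 and Apoa1 at 2643, against means of 1576, 1211 and 78.8 in the other 2 pools of that stage. The part of these hepatic transcripts in the signals of the 4 carriers was not tested. On 21-25 somites replicate 1 the same rule was met by 1 solute carrier, Slc16a6, and by 38 of all genes tested. Slc16a6 had a mean of 77.4 over the other 8 arrays, below the filter.

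**Figure D5:**
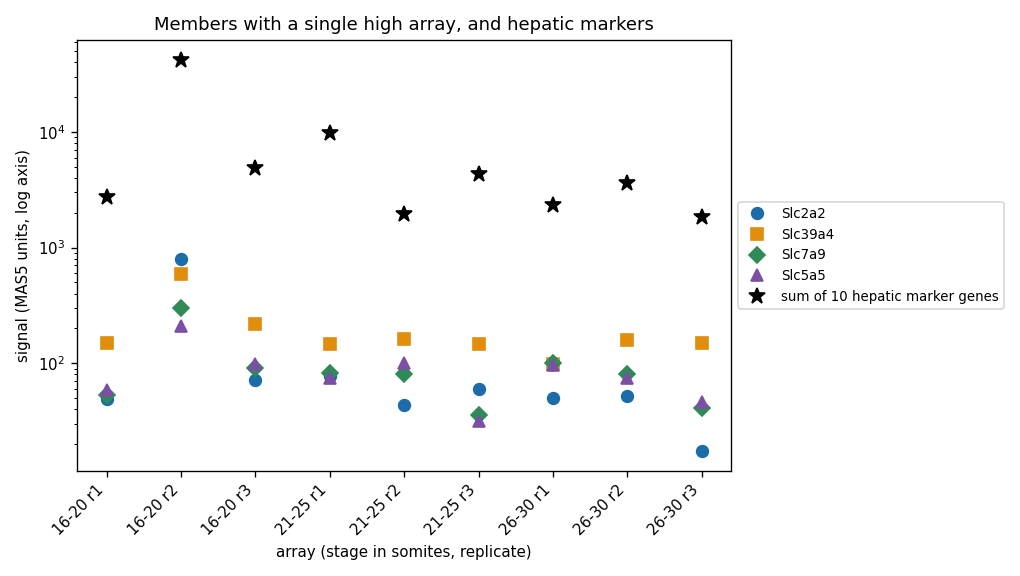
MAS5 signal (log axis) of Slc2a2, Slc39a4, Slc7a9 and Slc5a5 and the summed signal of 10 hepatic marker genes (stars) on each array, labelled by stage and replicate (r). All 4 carriers and the marker sum are highest on 16-20 somites replicate 2.

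A separate list of 34 genes, here called transport partners, held proteins that work with solute carriers or report the metabolites they carry. Of these, 30 were on the array and 27 tested. Over the whole interval 11 had differences above 0 and 16 below 0, median -0.13; 0 passed in limma and 2 (7.41%, against 11.1% of all genes) had an unadjusted p under 0.05, both lower at 26-30 somites. Arrays of the first and last stage did not overlap for 5 (18.5%, against 21.4%). Emb (embigin), a chaperone of monocarboxylate transporters, went from 3190 ± 916 (SD, n = 3) at 16-20 somites to 1594 ± 425 at 26-30 somites, a difference of -0.98 ± 0.27 (adjusted p = 0.331). Car4, a membrane carbonic anhydrase that works beside bicarbonate and lactate carriers, went from 582 ± 140.0 to 289 ± 102, a difference of -0.98 ± 0.31 (adjusted p = 0.351). For both genes every array of the last stage lay below every array of the first, and both passed with array weights. The other 3 without overlap were the transferrin receptor Tfrc (-0.33 ± 0.22) and asparagine synthetase Asns (-0.41 ± 0.21), both lower, and the metal-responsive factor Mtf1 (0.41 ± 0.32), higher. Basigin (Bsg), the usual chaperone of Slc16a1, had -0.13 ± 0.27 with overlapping arrays.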

How the data were processed

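The authors deposited MAS5 intensity values of 9 Affymetrix arrays, per the submitters' processing notes; which version, what scaling and any detection calls: not given in the sources used here. Values were used as deposited. The table held 22690 probe sets, 64 of them controls, and the platform's annotation named 1 gene for 20380, which were kept, more than 1 for 691 and no gene for 1555. The 255 solute carriers had 410 probe sets, and all 255 matched a RefSeq gene.

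Signals were taken to log2 after adding 26.1, the 20th percentile of all values, and genes below a mean signal of 80.1 (the 30th percentile) were left out. A single limma model (version 3.58.1, R 4.3.3; lmFit, then eBayes with a trend) took in the 9 arrays with a mean per stage, two-sided, with Benjamini-Hochberg adjustment over all 8675 genes tested at 0.05. The step was tested on simulated data. Members, families, lists and the rule for named genes were chosen with earlier results of these data known. The rule took, in each family, the 2 tested members per direction with the smallest p and the 2 with the highest mean signal, the 2 per direction with the smallest p in each step, and a list of well-known carriers. In all 43 named genes were tested. Families were described by counts and medians, with no test. The number of arrays limits the precision, and p sets a difference between stages against the spread between pools.

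Alternatives were quantile normalization, median centring, a pseudocount of 6.53 or 104, no filter or the 50th percentile, no trend, array weights, the mean of all probe sets, the replicate number as a block, only the 6 arrays compared, and leaving out each array. A fit without the 3 narrow-range arrays was added after the data were seen.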

Additional observations from a re-analysis of the deposited data

How the results depend on the processing

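With array weights, 7 solute carriers passed over the whole interval, 5 in the F test and 2 transport partners, and none of these under any other alternative run; unadjusted counts were then 33 over the whole interval, 22 in the first step and 21 in the second. Other unadjusted counts were 7 with probe sets averaged and 5 without the narrow-range arrays (whole interval), and, in the second step, 3 with no filter, 0 at the 50th percentile and 2 without the narrow-range arrays. Leaving out 1 array gave 8 to 19, 9 to 20 and 1 to 7 for the whole interval, first step and second step. No pairing of the arrays by replicate number was seen, although 3 arrays per stage are too few to exclude one. Correlations of same-numbered arrays ran from -0.28 to 0.26, and 3 of 9 arrays correlated best with their own number. With the replicate block 0 solute carriers passed and 15 had an unadjusted p under 0.05 over the whole interval, against 13 without it.

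Family medians moved as follows. Amino acid: -0.19 in the first step without the narrow-range arrays; -0.0246 at the 50th percentile filter and -0.080 with mean probe sets over the whole interval; 0.11 with array weights, 0.068 with mean probe sets and 0.020 without the narrow-range arrays in the second step; with 1 array left out -0.19 to 0.00198 (first step), -0.16 to -0.067 (whole) and -0.098 to 0.11 (second step). Glucose: 0.0035 in the first step with no filter or the 50th percentile filter, and -0.23 to -0.0014 (first step) and -0.30 to -0.024 (whole) with 1 array left out. Ion: -0.13 over the whole interval without the narrow-range arrays. Mitochondrial: 0.080 in the first step with mean probe sets, and -0.0025 to 0.13 (first step), 0.00866 to 0.10 (whole) and -0.040 to 0.076 (second step) with 1 array left out. Transport partners: 0.021 without the narrow-range arrays. The Slc2 median was -0.71 at the 50th percentile filter, which left 3 genes, all below 0, and -0.60 to -0.16 with 1 array left out.

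Of 1244 values of named genes, 1193 kept direction and call, 7 passed in addition (array weights) and 44 changed sign. These were, for 26-30 against 16-20 somites and without the narrow-range arrays, Slc16a1 at -0.64, Slc30a1 at -0.14, Slc35a1 at -0.050, Slc38a10 at 0.095, Slc38a4 at -0.22 and Slc9a3r1 at -0.31. With quantile normalization they were Slc25a3 at 0.25, Slc30a1 at -0.012 and Slc35a1 at -0.016. With mean probe sets they were Slc31a2 at 0.043, Slc38a10 at 0.059, Slc38a4 at -0.20 and Slc45a3 at -0.034. With array weights they were Slc1a5 at -0.045, Slc3a2 at 0.0099 and Slco3a1 at 0.035, and with the larger pseudocount Slc1a5 at -0.002674. Ranges with 1 array left out were -0.20 to 0.50 for Slc16a1, -0.43 to 0.31 for Slc1a5, -0.33 to 0.076 for Slc25a3, -0.19 to 0.14 for Slc30a1, -0.23 to 0.13 for Slc31a2, -0.063 to 0.11 for Slc35a1, -0.12 to 0.050 for Slc38a10, -0.021 to 0.46 for Slc38a4, -0.14 to 0.57 for Slc39a8, -0.070 to 0.092 for Slc3a2, -0.43 to 0.12 for Slc66a1, -1.01 to 0.0053 for Slc7a9, -0.083 to 0.72 for Slc9a3r1 and -0.41 to 0.37 for Slco3a1. Without a change of sign such ranges were 0.044 to 0.51 for Slc7a5, 0.20 to 0.60 for Slc39a6, 0.074 to 0.45 for Slc40a1, 0.015 to 0.24 for Slc20a1, 0.20 to 0.50 for Slc12a2 and -0.27 to -0.063 for Slc25a5. The cause of these moves was not tested. Dim probe sets, near the added 26.1, carry the least information.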
